A study of Homo sapiens with 8 samples.

Results

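The 9 nucleotide synthesis enzymes described here are TYMS, RRM1, RRM2 and TK1 of deoxynucleotide supply, PPAT, PAICS and IMPDH2 of purine synthesis, and CAD and CTPS1 of pyrimidine synthesis. They were chosen by name, through the RefSeq accession of their array probes, with earlier results of these data known. The 9 are among 28850 genes tested and were measured by 11 of the 42405 probes. Of the 28850, 17858 had a gene symbol and the rest were counted under their sequence name. Shares of all genes below are over both kinds together. RNA came from LNCaP, an androgen-responsive line first grown from a lymph node metastasis of human prostate cancer, grown in RPMI-1640 with fetal bovine serum. All cells, controls included, received siRNA at 30 nM in oligofectamin and were harvested 72 h later. The 4 arrays labelled siGATA2 come from cells given an siRNA against GATA2, a zinc-finger transcription factor, and the 4 labelled siControl from cells given a scrambled siRNA. The study used this comparison to find genes that change when GATA2 is silenced in prostate cancer cells.

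Dividing cells need a supply of purine and pyrimidine nucleotides for RNA and of deoxynucleotides for DNA. Purines are built stepwise on phosphoribosyl pyrophosphate up to inosine monophosphate, from which separate branches lead to adenine and guanine nucleotides, while the pyrimidine ring is built first and joined to the sugar afterwards. Ribonucleotide reductase turns ribonucleotides into deoxynucleotides, thymidylate synthase methylates the deoxyuridine form with a carbon carried by folate, and several of these enzymes are known for their high levels in S phase and as targets of anticancer drugs.

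All values are log2 processed signals of single-colour Agilent arrays after quantile normalization, fold changes are differences of group means on that scale, negative where siGATA2 was lower, and a gene was called where its limma p-value, adjusted over the 28850 genes, was under 0.05. The GATA2 probe itself was not lower on the arrays labelled siGATA2. It read 12.61, 12.54, 11.57 and 11.40 there and 11.74, 11.28, 11.10 and 11.29 on the siControl arrays, a log2 difference of 0.68 (SE 0.312, adjusted p = 0.154), so each direction below rests on the array labels. With the title letters described next as a block it was higher by 0.47 (adjusted p = 0.0261), a call lost with the arrays averaged by letter under the same block (0.55, adjusted p = 0.204). All 9 prostate luminal genes examined were well above background on all 8 arrays. So were PTPRC, CD14, VWF and COL1A1, markers of other cell types, so this criterion alone does not identify the cells. Each array had between 24241 and 36968 probes well above background, with the lowest numbers on siControl arrays 1 and 3.

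The arrays did not vary independently within their groups. Over 18419 genes, the median absolute log2 difference was 0.0782 between siGATA2 arrays 1 and 2 and 0.0671 between arrays 3 and 4, but 0.367 to 0.397 between these pairs. Among siControl arrays 2, 3 and 4 it was 0.0782 to 0.110, against 0.289 to 0.305 from any of them to siControl array 1. Measured on single spots, the close pairs of siGATA2 arrays differed by 0.0770 and 0.0670, whereas a pair of spots of the same probe on 1 array differed by 0.0412 to 0.0659. The split follows the letter in the sample titles, whose meaning the labels do not give, since siGATA2 arrays 1 and 2 and siControl array 1 carry A or B and the others D to G. The labels call the 4 samples of a group biological replicates, but with spreads this small inside a letter set there may be fewer independent cultures. The p-values below from fits on all arrays include the spread between letter sets, but may count too many replicates. Those from arrays of a single letter set may measure mostly technical spread. Averaging the arrays of each letter set, which leaves 2 values against 2, gave 0 calls over all 28850 genes in limma, with 2746 genes lower and 2154 higher at an unadjusted p under 0.05. Between siGATA2 and siControl arrays of the same letter set, the median absolute difference over the 18419 genes was 0.387 to 0.423. The difference between the letter sets within siGATA2 was thus nearly as large.

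With the 4 arrays of a group taken as replicates, 8 of the 9 enzymes had a lower signal on the arrays labelled siGATA2 and none had a higher one, while 14.2% of all genes tested were called lower and 12.3% higher, 26.5% in either direction. RRM2, the small subunit of ribonucleotide reductase, was not called, but with array weights in limma it was (-1.13, adjusted p = 0.00592), which made 9 of 9 lower beside 19.1% of all genes. TYMS, IMPDH2, TK1, PPAT and CTPS1, 5 of the 9, fell at least 2-fold, as did 7.13% of all genes, beside 4.52% that rose as far. The median log2 fold change of the 9 enzymes was -1.07, beside 0.09 over all genes. For the 8 called enzymes no siGATA2 array reached the lowest siControl array, a separation in this direction found for 16.4% of all genes, and for 16.1% in the other. In bulk RNA, fewer cells of a type and less RNA per cell cannot be told apart.

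With the arrays averaged by title letter, none of the 9 enzymes was called in limma, with adjusted p-values from 0.0731 for TYMS to 0.741 for RRM2. At an unadjusted p under 0.05, 6 of the 9 were lower, beside 2746 of all 28850 genes. With the letter set kept as a block in that fit, 5 were called, namely TYMS (adjusted p = 0.0191), IMPDH2 (0.0196), PPAT (0.0236), TK1 (0.0237) and CTPS1 (0.0466), while 6.42% of all genes were called lower and 4.63% higher in it. RRM1 (0.0601), PAICS (0.109) and CAD (0.177) were not. The other 8 enzymes besides RRM2 had a lower mean on the siGATA2 arrays within each letter set.

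**Figure D1:**
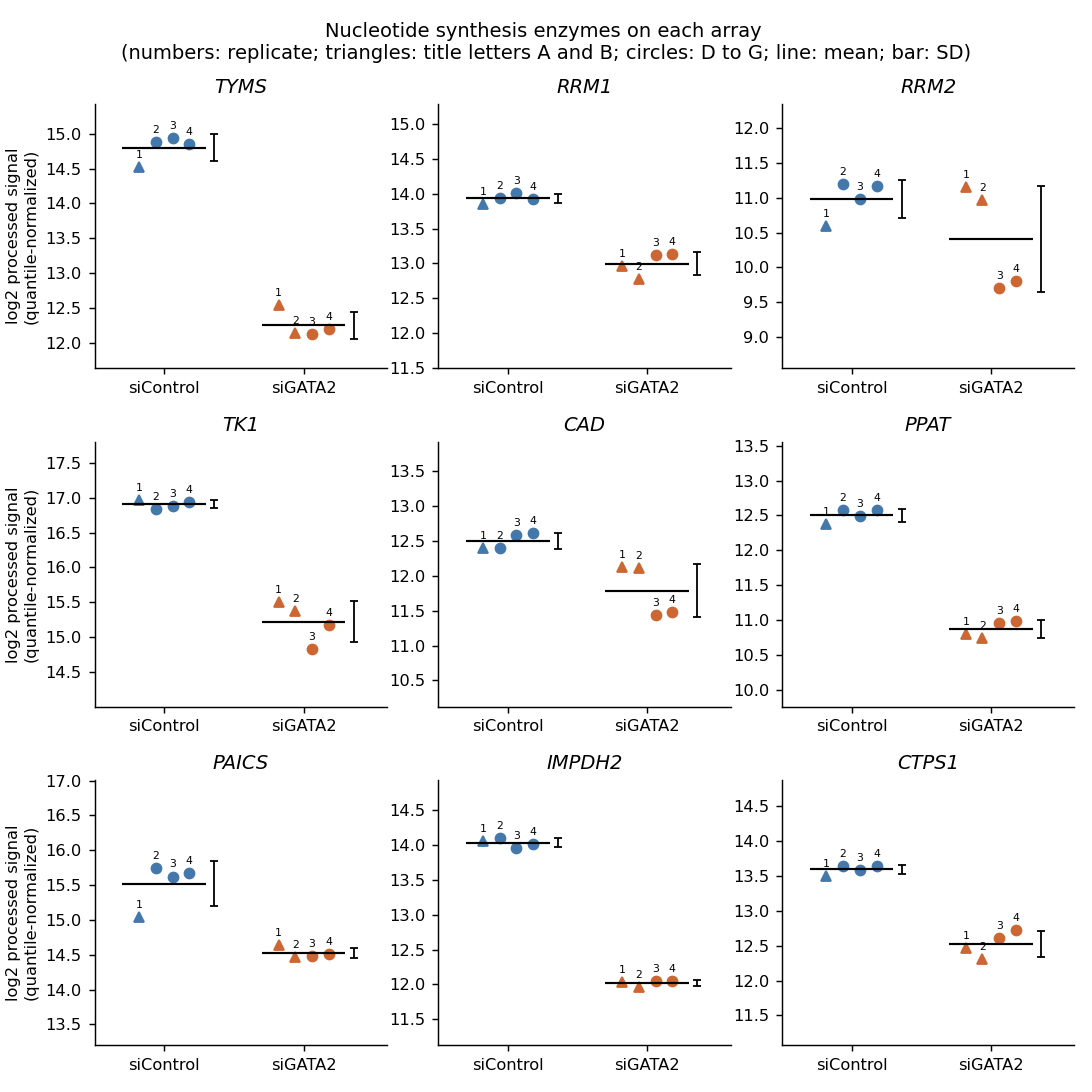
Quantile-normalized log2 processed signal (vertical axis, 3.8 log2 units in every panel) of the 9 enzymes on the 4 siControl and 4 siGATA2 arrays, numbered by replicate, with triangles for arrays whose titles carry A or B, circles for D to G, a line at the group mean and a bar for the SD. The 2 groups separate for every enzyme except RRM2, whose siGATA2 arrays 1 and 2 lie near 11 and arrays 3 and 4 near 9.8.

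TYMS, thymidylate synthase, makes thymidine monophosphate from deoxyuridine monophosphate and is the target of fluorouracil. Its log2 signal was 12.54, 12.14, 12.12 and 12.19 on the siGATA2 arrays and 14.52, 14.89, 14.94 and 14.85 on the siControl arrays. The groups lay far apart, and all 4 siGATA2 values sat close together apart from a slightly higher array 1. The log2 fold change was -2.55 (SE 0.145, adjusted p = 2.36e-05), a 5.87-fold fall, the largest of the 9 enzymes, and 0.662% of all genes had a lower fold change. Within the letter sets the difference was -2.18 for A and B and -2.74 for D to G.

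TK1, the cytosolic thymidine kinase, supplies the same nucleotide from free thymidine. Signals of 15.50, 15.38, 14.83 and 15.17 on the siGATA2 arrays stood against 16.97, 16.84, 16.88 and 16.93 on the siControl arrays. The siControl arrays were nearly level and the siGATA2 arrays were all below them. TK1 fell by 1.69 on the log2 scale (SE 0.154, adjusted p = 1.64e-04), or 3.22-fold. TYMS and TK1, which deliver thymidylate by synthesis and by salvage, were thus both called lower.

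RRM1 and RRM2 code for the large and small subunits of the ribonucleotide reductase that works in S phase. RRM1, which holds the catalytic and regulatory sites, read 12.96, 12.77, 13.12 and 13.13 on the siGATA2 arrays and 13.85, 13.94, 14.02 and 13.93 on the siControl arrays. Each siGATA2 array was below each siControl array, and the log2 fold change was -0.94 (SE 0.115, adjusted p = 6.67e-04), a 1.92-fold fall.

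RRM2, which carries the radical needed for the reaction, gave 11.16, 10.97, 9.71 and 9.81 on the siGATA2 arrays and 10.60, 11.19, 10.98 and 11.17 on the siControl arrays. Arrays 1 and 2 of siGATA2 lay within the siControl range and arrays 3 and 4 below all of it, so the groups overlapped. The log2 fold change of -0.57 (SE 0.362) had an adjusted p of 0.287, and an exact two-sided permutation test on the 8 values gave p = 0.2. The SD was 0.758 over the siGATA2 arrays, the largest of any enzyme in either group, and 0.275 over the siControl arrays.

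The split of RRM2 follows the title letters. In the A and B set the 2 siGATA2 arrays averaged 0.46 above the single siControl array, and in the D to G set they averaged 1.36 below the 3 siControl arrays. With the D to G arrays alone limma gave a log2 fold change of -1.36 (SE 0.0945, adjusted p = 0.00109). That fit called 19.5% of all genes lower and 23.9% higher, and its spread, that inside a letter set, may be mostly technical. With the letter set as a block the log2 fold change of RRM2 was -0.71 (adjusted p = 0.149). No other enzyme changed sign between the letter sets. CAD came nearest, at -0.28 and -1.07. The GATA2 probe was also 1.09 higher on siGATA2 arrays 1 and 2 than on arrays 3 and 4. The same difference was 1.30 for RRM2, 0.66 for CAD, 0.44 for TK1, 0.18 for TYMS and 0.06 for PAICS. It was -0.28 for CTPS1, -0.26 for RRM1, -0.21 for PPAT and -0.05 for IMPDH2. GATA2 read 11.74 on the siControl array of the A and B set and averaged 11.22 on those of the D to G set. The part of GATA2 in the split of RRM2 or CAD was not tested.

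The promoters of RRM1, RRM2 and TK1, which span a called large subunit, an uncalled small subunit and a called kinase, all hold a CCAAT box close to a start site. They are shown to compare the sequence around it, as RefSeq gives it in assembly GRCh38.p14, 5′ to 3′ on the strand of the gene, with the CCAAT letters in capitals. For TK1 the capitals read ATTGG, which is CCAAT on the opposite strand. The lines give, in order, RRM1 at chr11:4094647-4094671 (plus strand, 28 bases before the start), the 3 boxes of the downstream RRM2 start at chr2:10122606-10122630, chr2:10122636-10122660 and chr2:10122663-10122687 (plus strand, 123, 93 and 66 bases before it), and the 2 boxes of TK1 at chr17:78187115-78187139 and chr17:78187084-78187108 (minus strand, 77 and 46 bases before the start).
RRM1 box: atgtccatatCCAATggggcccatg
RRM2 box a: caaggcgcagCCAATgggaagggtc
RRM2 box b: catggcacagCCAATgggaagggcc
RRM2 box c: ggcaccaaagCCAATgggaagggcc
TK1 box a: ccgggcgctgATTGGccccatggcg
TK1 box b: ccggctcgtgATTGGccagcacgcc
The 3 RRM2 boxes are followed by nearly the same letters. RefSeq promoter windows of 250 bases before a start site matched 8 of the 9 enzymes by symbol, with 13 windows between them, and IMPDH2 was not among them. CCAAT, searched on both strands, was in 5 of the 13 windows (RRM1, both RRM2 starts, 1 of the TK1 starts and CAD) and in 32.0% of all 35116 windows. Of the forms of the core bound by E2F factors, only TTCGCGC and TTGGCGC were searched. They were in 1 window, that of the upstream RRM2 start, and in 4.24% of all windows. Another form, TTCCCGC, stands on either strand in windows of TYMS, RRM1, TK1 and PAICS and was not counted over all windows. The count therefore does not show that the other enzymes lack an E2F core. A GATA site, written AGATAA with T allowed in the first place and G in the last, was in 1 window, that of the second CTPS1 start, and in 22.3% of all windows. No binding was measured here.

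In purine synthesis, PPAT carries out the first committed step, the transfer of an amino group to phosphoribosyl pyrophosphate. It read 10.79, 10.73, 10.96 and 10.99 on the siGATA2 arrays and 12.38, 12.58, 12.49 and 12.57 on the siControl arrays. The arrays were even within each group and far apart between them. The log2 fold change was -1.63 (SE 0.107, adjusted p = 3.90e-05), a 3.11-fold fall, and a second PPAT probe gave -1.53 (adjusted p = 8.58e-05).

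PAICS, a bifunctional enzyme that acts later in the same chain, read 14.64, 14.47, 14.48 and 14.52 on the siGATA2 arrays and 15.04, 15.74, 15.62 and 15.67 on the siControl arrays. The siGATA2 arrays were almost level and siControl array 1 was the lowest of its group, yet above all of them. PAICS fell by 0.99 on the log2 scale (SE 0.166, adjusted p = 0.00323), or 1.99-fold. Without siControl array 1 the log2 fold change was -1.15 (adjusted p = 2.13e-04).

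PPAT and PAICS lie on opposite strands of chromosome 4. RefSeq lists 3 PAICS starts, of which the first lies inside PPAT and the other 2 lie beyond the PPAT start and point away from it. The 136 bases between the PPAT start and the nearest of these, chr4:56435616-56435751 of GRCh38.p14 from RefSeq, are shown because this stretch lies upstream of both enzymes when PAICS starts there. The sequence is on the plus strand, that of PAICS, and capitals mark GC boxes, the letters GGGCGG.
PPAT-PAICS interval: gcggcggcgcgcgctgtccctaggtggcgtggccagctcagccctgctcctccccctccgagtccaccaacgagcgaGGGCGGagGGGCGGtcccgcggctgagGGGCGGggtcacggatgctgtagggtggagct
The interval holds 3 GC boxes and no CCAAT box, E-box, E2F core of the searched forms, GATA site or TATA box (the letters TATAAA, found in 10.7% of all windows). GGGCGG was in 9 of the 13 windows of the enzymes and in 42.6% of all windows. Some of the 13 overlap, so the 3 boxes of this interval count for both PPAT and PAICS, and the TK1 windows have a box in common. CACGTG, the E-box of MYC and related factors, was in 1 window, that of PPAT, and in 6.34% of all windows. The fold changes of these neighbours were -1.63 and -0.99 on the log2 scale. The difference between their log2 signals shifted by -0.64, with the 2 groups apart, at an exact two-sided permutation p = 0.0286, the smallest that 4 arrays against 4 can give, and 0.0571 after adjustment over 6 pairs. It was -0.39 within the D to G set and -1.13 in the A and B set, where siControl array 1 is the only control.

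IMPDH2, inosine monophosphate dehydrogenase 2, opens the branch to guanine nucleotides and is a target of mycophenolic acid. Its signal was 12.04, 11.96, 12.05 and 12.05 on the siGATA2 arrays and 14.06, 14.10, 13.96 and 14.02 on the siControl arrays. Both groups were tight, with SDs of 0.0416 and 0.0609. The log2 fold change of -2.01 (SE 0.0886, adjusted p = 1.33e-05) was a 4.02-fold fall with the lowest adjusted p of the 9 enzymes, and it was nearly the same in the letter sets, -2.06 for A and B and -1.98 for D to G.

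In pyrimidine synthesis, CAD carries the first 3 activities of the pathway on a single protein. It read 12.13, 12.11, 11.43 and 11.49 on the siGATA2 arrays and 12.40, 12.39, 12.58 and 12.61 on the siControl arrays. The groups did not overlap, but siGATA2 arrays 1 and 2 came close to the siControl range. CAD fell by 0.71 on the log2 scale (SE 0.193, adjusted p = 0.0291), or 1.63-fold, the weakest call of the 8. The call was lost without siControl array 2 (adjusted p = 0.0585), 3 (0.0693) or 4 (0.0792), or without siGATA2 array 3 (0.0651) or 4 (0.0704).

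CTPS1, which makes cytidine triphosphate from uridine triphosphate, read 12.47, 12.30, 12.62 and 12.72 on the siGATA2 arrays and 13.51, 13.65, 13.58 and 13.64 on the siControl arrays. Every siGATA2 array was below every siControl array. The log2 fold change was -1.07 (SE 0.118, adjusted p = 4.03e-04), a 2.10-fold fall, and a second CTPS1 probe gave -1.07 too (SE 0.177, adjusted p = 0.00300).

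Several of the enzymes have a paralog that does the same reaction, and these did not all move with them. IMPDH1, the other inosine monophosphate dehydrogenase, fell by 2.27 on the log2 scale (SE 0.266, adjusted p = 5.41e-04), so both genes for this step were lower. RRM2B, the small subunit that p53 induces and that serves DNA repair and mitochondria, fell by 1.21 (SE 0.259, adjusted p = 0.0105). TK2, the mitochondrial thymidine kinase, fell by 0.49 (SE 0.105, adjusted p = 0.0108). CTPS2, the second cytidine triphosphate synthase, had a log2 fold change of 0.50 and was not called (SE 0.262, adjusted p = 0.210). It was called with the title letters as a block (0.32, adjusted p = 0.0340), but not with the arrays averaged under that block (adjusted p = 0.317).

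For 6 pairs of enzymes the difference between the probes on the same array was compared between the groups, with two-sided exact permutation tests adjusted over the 6 pairs. A probe's level cannot be set against that of another probe, but the shift of their difference shows unequal change. CTPS1 against CTPS2 shifted by -1.56 and TK1 against TK2 by -1.20, each with separate groups, an exact permutation p = 0.0286 and an adjusted p of 0.0571. The shifts of RRM2 against RRM1 (0.36), RRM2 against RRM2B (0.63) and IMPDH2 against IMPDH1 (0.26) had adjusted permutation p-values of 0.457, with overlapping groups. For RRM2 the sign of the shift turned in the D to G arrays alone, to -0.52 against RRM1 and -0.15 against RRM2B, from 1.45 and 1.22 in the A and B set. The shift of IMPDH2 against IMPDH1 was -0.37 in the A and B set and 0.82 in the D to G set, and leaving out siGATA2 array 3 or 4 took it to 0.08 or 0.11.

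**Figure D2:**
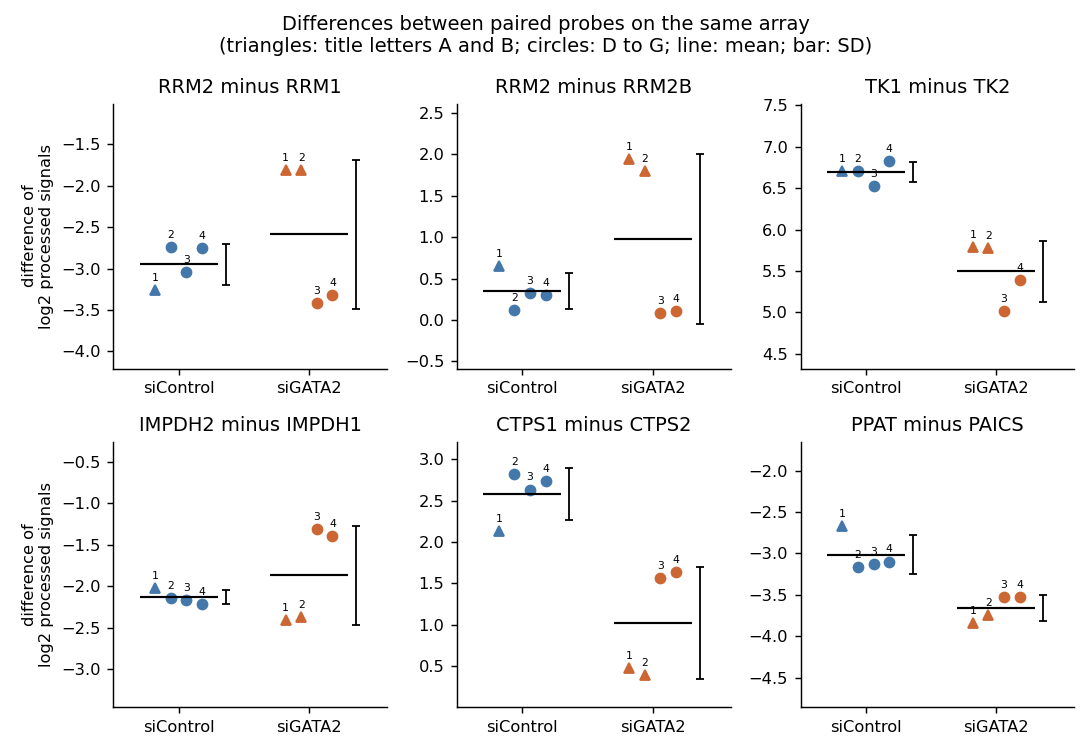
Difference between the log2 processed signals of 2 probes on the same array (vertical axis, 3.2 log2 units in every panel) for the 6 pairs, in the 4 siControl and 4 siGATA2 arrays, with triangles for title letters A and B, circles for D to G, a line at the mean and a bar for the SD. The groups are apart for TK1 minus TK2, CTPS1 minus CTPS2 and PPAT minus PAICS, and overlap for the other pairs. Only the shift between groups has a meaning, since levels of different probes are not comparable.

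The other genes of nucleotide metabolism were counted over 7 lists. Of 75 further genes in them, 71 were tested, and 33 of them were called lower (46.5%, beside 14.2% of all genes) and 2 higher (2.82%). Their median log2 fold change was -0.49. UPP1 had no matched probe, and DPYS, GDA and SLC28A3 were too dim to be tested. With the arrays averaged by title letter none of the 71 was called in limma. At an unadjusted p under 0.05, 23 were lower and 2 higher, beside 2746 and 2154 of all 28850 genes. With the letter set as a block in that averaged fit 15 of the 71 were called lower and 1 higher, beside 6.42% and 4.63% of all genes.

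Of the 10 purine genes besides the 3 enzymes above, 5 were lower (50%) and 1 higher (10%), beside 14.2% and 12.3% of all genes. The higher one was ADSS1, the muscle form of adenylosuccinate synthase on the branch to adenine nucleotides, at 0.82 (SE 0.0954, adjusted p = 5.18e-04). Of the 4 further pyrimidine genes only DHODH, the mitochondrial dihydroorotate dehydrogenase, was called, at -0.68 (SE 0.106, adjusted p = 0.00224). In the dNTP list, 8 of 11 further genes were lower and none higher.

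Of 11 salvage genes tested, which act on bases and nucleosides already made, 5 were lower and none higher. UCK2, which phosphorylates uridine and cytidine, fell by 2.04 on the log2 scale (SE 0.118, adjusted p = 2.43e-05). HPRT1, which salvages hypoxanthine and guanine, fell by 1.16 (SE 0.0955, adjusted p = 1.00e-04). The list of 10 breakdown genes tested gave 2 lower (20%) and 1 higher (10%), beside 14.2% and 12.3% of all genes, with a median close to 0. In it NT5M, a mitochondrial nucleotidase, fell by 1.24 (adjusted p = 0.00339) and UPB1, the last enzyme of pyrimidine degradation, rose by 1.45 (adjusted p = 0.00137) from a mean of 6.77 to 8.23.

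The serine and folate one-carbon list, which supplies carbon to purine rings and to TYMS, had 11 of 19 genes lower and none higher, with a median of -0.87. MTHFD2, the mitochondrial folate dehydrogenase and cyclohydrolase, showed a log2 fold change of -3.32 (SE 0.114, adjusted p = 1.17e-05), from a siControl mean of 13.50 to 10.18. GGH, which trims the glutamate tail of folates, fell by 1.89 (adjusted p = 8.72e-05). MTHFD1L, which makes formate in mitochondria, fell by 1.75 (adjusted p = 4.16e-04). Of 6 nucleoside transporters tested, only SLC29A1, the equilibrative carrier ENT1, was called, at -2.52 (SE 0.310, adjusted p = 6.98e-04). This share of 16.7% is near the 14.2% of all genes called lower.

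**Figure D3:**
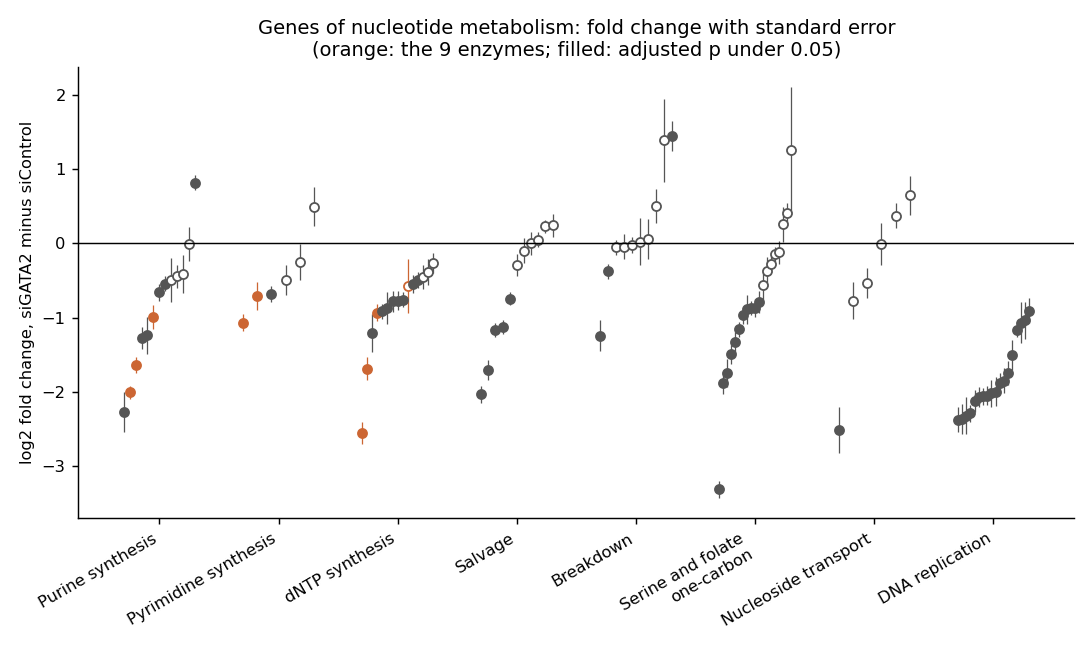
Log2 fold change (vertical axis, siGATA2 minus siControl, bars for the standard error) of each tested gene in the 7 lists of nucleotide metabolism and in the DNA replication list, ordered within a list, with the 9 enzymes in orange and filled points for an adjusted p under 0.05 with 4 arrays a group. Most filled points are below 0, the breakdown list is spread around 0, and all 18 replication genes are filled and below 0.

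Gene groups that the rule did not use moved in the same comparison. All 18 DNA replication genes examined were called lower, beside 14.2% of all genes. Their log2 fold changes ran from -2.38 to -0.91 with a median of -2.01, below that of the 9 enzymes. Of the 9 prostate luminal markers, 5 were lower (55.6%), among them KLK3 at -1.63. KRT8 was higher at 0.56 (11.1%, beside 12.3% of all genes). TMPRSS2 (-0.13), FOLH1 (0.43) and KRT18 (0.19) were not called. The mean log2 signal of the 9 markers per array was 14.27 to 14.86 on the siGATA2 arrays and 15.14 to 15.19 on the siControl arrays. The mean of 11 markers of other cell types was 5.40 to 5.65 and 5.46 to 5.76, with VWF lower and PTPRC higher (9.09% each). The part of these genes in the fall of the enzymes was not tested.

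The genes with the profile most like each group of enzymes were found by the root mean square difference of centred log2 values over the 8 arrays, among 13243 other named genes well above background on every array. For the deoxynucleotide enzymes these were GEMIN5 (0.0704) and AMACR (0.0734), for the purine enzymes LSM12 (0.0439) and PRMT6 (0.0479), and for the pyrimidine enzymes HMGXB3 (0.0498) and PTRH2 (0.0499).

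The values of the enzymes were recomputed under other settings of scaling, filtering, blocking and array choice. The log2 fold change of every enzyme kept its sign in each of the 26 settings. None of the settings used the A and B arrays alone, in which RRM2 was higher by 0.46. TYMS, TK1, PPAT, IMPDH2 and CTPS1 kept their call in 25 of the 26 settings, all but the fit on averaged arrays without a block. RRM1 and PAICS kept theirs in 24 and CAD in 16. The settings reuse the same arrays, so these counts are not independent checks. Scaling to the E1A spike-in probes, which moved the median of all genes to -0.43, took the median of the enzymes to -1.73, and relative to all genes it was -1.30 under that scaling and -1.16 as reported. On siControl array 1 the spike-in probes averaged 11.13, against 13.45 to 13.83 for the remaining 7 arrays. With spike-in scaling and that array left out, the median was -0.0046 over all genes and -1.49 over the enzymes. In that setting 8 enzymes were called lower, beside 15.1% of all genes.

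**Figure D4:**
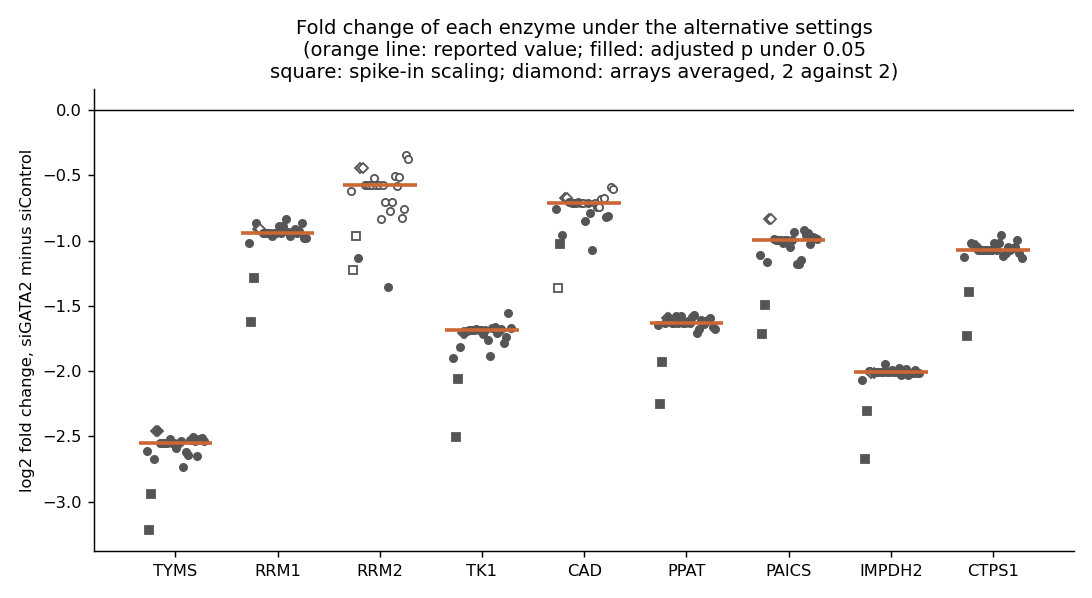
Log2 fold change (vertical axis, siGATA2 minus siControl) of each of the 9 enzymes under the 26 alternative settings, filled where the adjusted p was under 0.05, with squares for spike-in scaling, diamonds for arrays averaged by title letter and an orange line at the reported value. All points are below 0, RRM2 is mostly open and CAD is open in 10 settings.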

How the data were processed

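RNA of LNCaP cells was measured on 8 single-colour arrays, 4 labelled siGATA2 and 4 siControl, grouped by the labels. The intensity values deposited per spot were written by Feature Extraction 11.0.1.1, and the background-corrected processed signal was used. The authors also deposited a matrix of log2 values, used as an alternative. The study's methods name quantile normalization and a floor of 3 on the log2 scale. The array design in the file headers differs from that in the methods.

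Unflagged spots were averaged per probe on the log2 scale and quantile-normalized over the 8 arrays. Probes without annotation (1914 of 42405) or with a mean under 3 were removed, which left 35514. RefSeq accessions were matched to symbols of GRCh38.p14 (26364 of 27902 probes), and the brightest probe stood for each of 28850 genes. Of these genes, 17858 had a symbol. Groups were compared with lmFit and eBayes of limma 3.58.1 in R 4.3.3, all 8 arrays, no covariate, with Benjamini-Hochberg adjustment. In data simulated from the spreads of the 28850 genes of this comparison, with 200 genes changed 4-fold, it recovered 80.0% of them and 6.98% of its calls were false. Simulated arrays vary independently, unlike these. Arrays have no read depth, and their number limits the precision. All 11 probes of the enzymes were well above background and unsaturated on the 8 arrays. All arrays lay on 1 slide, so slide could not be a block.

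The genes named are the 9 enzymes, their paralogs, GATA2, up to 3 called genes per list and direction with the largest fold change, and the 2 genes most alike per enzyme group. Members, lists and rules were chosen with earlier results of these data known. Alternatives were other scalings, background correction, filters, probe choice, tests, blocks and left-out arrays. Those using title letters, and spike-in scaling without siControl array 1, were chosen after seeing the data.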

Additional observations from a re-analysis of the deposited data

Results flagged for a closer look

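Of 66 groups of 4 arrays examined with Dixon's test at a critical value of 0.829, 5 held an array that stood apart, and chance gives about 1 in 20. Of these, 4 concern siControl array 1, the only siControl array with title letter B. On it PAICS was 15.04, with 15.62 to 15.74 on the other siControl arrays, PNP was 14.31 (others 14.75 to 14.84), MTHFD2 was 13.25 (others 13.56 to 13.60), and the mean of the 9 enzymes was 13.70 (others 13.90 to 13.93). IMPDH2 on siGATA2 array 2 was 11.96, with 12.04 to 12.05 on the other siGATA2 arrays.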

How the results depend on the processing

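With the arrays averaged by title letters, 2 against 2, 0 enzymes were lower and the other pathway genes had 0 lower and 0 higher, and with the letter set as a block in that fit 5 enzymes and 15 pathway genes were lower and 1 higher. Requiring a 2-fold change as well left 5 enzymes lower. The enzymes' median was -1.73 with spike-in scaling, -1.49 with it and siControl array 1 left out, -1.36 with letters D to G only and -1.18 without siControl arrays 1 and 3. Pathway genes lower were 17 of 71 with spike-in scaling, beside 6.59% of all genes. Those higher, 2 of 71 as reported beside 12.3% of all genes, were 4 with 75th percentile scaling (14.1%), normexp (13.4%) or an intensity trend (13.1%), 0 with spike-in scaling (0.489%), 7 with array weights (20.6%), 8 with letters as a block (24.9%) and 9 with D to G only (23.9%). With letters as a block GATA2 was 0.47 (adjusted p = 0.0261) and CTPS2 0.32 (0.0340), both lost on averaged arrays with that block (0.204 and 0.317). CTPS2 was -0.14 with spike-in scaling, RRM2 minus RRM1 -0.52 and RRM2 minus RRM2B -0.15 with D to G only. Leaving out 1 array gave 7 to 8 enzymes lower, 31 to 40 pathway genes lower and 2 to 3 higher. Of all genes, 11.2% to 15.5% were called lower and 8.98% to 13.9% higher in these fits. The enzymes' medians in them were -1.15 to -0.99, with 0.49 to 0.89 for GATA2. The replicate numbers did not pair the arrays (correlations of deviations -0.31 to 0.54). The replicate block gave 7 enzymes (CAD lost, adjusted p = 0.0734) and 32 pathway genes lower, with 2 higher, beside 12.9% lower and 11.7% higher of all genes. The causes were not tested. Signal over background did not limit the enzymes, but the number of independent cultures behind the 4 arrays of a group does, and the labels do not settle it beyond the words biological replicates.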
